A study of Mus musculus with 7 samples.

Results

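The genes described here are 10 genes of DNA replication, Mcm2, Mcm3, Mcm4, Mcm5, Mcm6, Mcm7, Mcm10, Pola1, Pcna and Cdc6, out of 19937 genes measured in medullary thymic epithelial cells of reconSCID and reconRAG1KO mice. They are listed genes, selected on the log2 values of the 7 arrays in the contrast of reconSCID against reconRAG1KO, so their differences between the groups are given as a description and carry no test. Each gene is represented by its probe set with the highest mean among the probe sets with 1 gene symbol, and all 10 genes had one. The values are log2 of the deposited probe-set intensities, so a difference of 1 is a doubling.

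Before a cell divides, its DNA is copied from origins that are prepared in G1 and fired in S phase. Cdc6 helps the origin recognition complex load the ring of Mcm2 to Mcm7, the replicative helicase, onto DNA. Mcm10 takes part in activating that helicase, Pola1 is the catalytic subunit of DNA polymerase alpha, which starts each new strand with primase, and Pcna is the sliding clamp of the later polymerases. In the thymic medulla, cells with high MHC class II include the Aire-expressing epithelial cells, which turn over and derive from dividing precursors.

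The 4 reconRAG1KO samples came from NOD mice null for RAG1, the control group and the strain without the recombinase of lymphocyte antigen receptor genes, and the 3 reconSCID samples from NOD mice with the SCID mutation of DNA-PK, the kinase of DNA end joining encoded by Prkdc. Recipients of both groups were irradiated with 200 rad and given bone marrow by intraperitoneal injection 6 h later, as pups of 2 to 4 days, and the thymi were taken 6 to 8 weeks after transfer. Medullary epithelial cells with high MHC class II (MHCIIhi MECs in the labels) were sorted after collagenase and dispase digestion, and total RNA was hybridised to Affymetrix arrays. Hosts of the SCID strain lack mature thymocytes of their own and, per the series' design text, the stroma that depends on them. This lack is not given here as a difference from the RAG1-null hosts, which have no recombinase for lymphocyte antigen receptor genes. The labels give no untreated or unirradiated group, and neither the donor of the marrow nor the number of thymi per sample.

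The arrays did not form 1 even set, which touches every value below. Over all probe sets reconRAG1KO replicate 4 was nearer to reconSCID replicate 2 (Pearson r of 0.972) than to any array of the remaining 5 (0.922 to 0.947 for both), and those 5 lay at 0.976 to 0.990. No label names a batch, and each set holds both groups, so differences are also given within the 5 arrays and within the 2 arrays. Within the 2 arrays a difference is reconSCID replicate 2 less reconRAG1KO replicate 4, 1 array against 1. All 12 listed markers of medullary epithelium were measured, and Aire, the transcription regulator that marks these cells, lay between 9.73 and 11.93. Aire was lowest in reconSCID replicate 3, and reconSCID minus reconRAG1KO was -0.57 ± 0.44 (SE). The list split between the array sets. The mean of the 2 arrays less that of the 5 was 1.03 for Aire and 1.76 for Krt5, but -1.09 for Cd80, -2.31 for Cd86 and -0.62 for H2-Aa. The myeloid marker Lyz2 lay between 11.53 and 13.23. By limma, with Benjamini-Hochberg adjustment over 34760 probe sets, 0 probe sets were higher and 0 lower in reconSCID at an adjusted p under 0.05 (0% in each direction), while before adjustment 765 higher (2.2%) and 394 lower (1.13%) had a p under 0.05.

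The promoters are shown first, since their letters played no part in the choice of genes. Promoter sequences of RefSeq (GRCm38.p6, 250 bases before to 50 after the gene's start) were found for 9 of the 10 genes, all but Mcm4, and were searched on both strands for TTTGGCGC, TTTCGCGC, TTTCCCGC and TTTGCCGC. These are forms of the consensus bound by E2F factors, which drive S phase genes. At least 1 of these forms stood in the promoters of 6 of the 9 genes, Cdc6, Mcm3, Mcm5, Mcm6, Mcm7 and Pola1, against 3.48% of the 15613 measured genes that have a promoter in the table and 2.26% of all 32851 promoters. CCAAT, the box bound by NF-Y, stood in 8 of the 9, against 41.7% of the measured genes. A match is a run of letters and not a shown binding site. Printed below, 5′ to 3′, are the promoters of Mcm6 (chr1:128359656-128359955, - strand) and Pola1 (chrX:93632106-93632405, - strand), whose groups did not overlap, of Mcm5 (chr8:75109259-75109558, + strand), Mcm3 (chr1:20820263-20820562, - strand) and Mcm7 (chr5:138171834-138172133, - strand), other subunits of the same ring, and of Mcm2 (chr6:88898731-88899030, - strand), a subunit whose window holds none of the forms. Capitals mark the matches.
Mcm6 promoter: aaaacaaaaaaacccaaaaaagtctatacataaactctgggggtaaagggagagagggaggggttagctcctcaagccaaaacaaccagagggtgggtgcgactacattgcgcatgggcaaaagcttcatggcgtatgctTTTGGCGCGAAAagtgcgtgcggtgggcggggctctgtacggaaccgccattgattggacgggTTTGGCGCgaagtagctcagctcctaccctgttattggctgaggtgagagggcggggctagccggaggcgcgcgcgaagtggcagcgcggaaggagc
Pola1 promoter: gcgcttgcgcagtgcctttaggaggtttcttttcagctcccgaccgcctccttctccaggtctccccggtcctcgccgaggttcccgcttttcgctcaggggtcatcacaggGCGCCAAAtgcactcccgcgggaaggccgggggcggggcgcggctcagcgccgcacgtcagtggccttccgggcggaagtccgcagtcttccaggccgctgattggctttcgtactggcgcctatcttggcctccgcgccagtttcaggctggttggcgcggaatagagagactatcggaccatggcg
Mcm5 promoter: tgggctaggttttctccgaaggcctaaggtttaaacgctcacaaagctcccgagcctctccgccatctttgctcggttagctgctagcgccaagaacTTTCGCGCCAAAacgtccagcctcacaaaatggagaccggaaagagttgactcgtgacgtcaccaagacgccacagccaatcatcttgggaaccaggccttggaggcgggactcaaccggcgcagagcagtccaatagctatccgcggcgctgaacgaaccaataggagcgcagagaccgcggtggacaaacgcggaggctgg
Mcm3 promoter: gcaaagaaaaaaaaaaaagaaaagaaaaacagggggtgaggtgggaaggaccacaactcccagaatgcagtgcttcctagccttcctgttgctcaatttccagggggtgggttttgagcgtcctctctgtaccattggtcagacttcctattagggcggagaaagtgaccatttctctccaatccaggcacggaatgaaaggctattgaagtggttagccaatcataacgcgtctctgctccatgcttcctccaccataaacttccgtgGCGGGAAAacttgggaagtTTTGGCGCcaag
Mcm7 promoter: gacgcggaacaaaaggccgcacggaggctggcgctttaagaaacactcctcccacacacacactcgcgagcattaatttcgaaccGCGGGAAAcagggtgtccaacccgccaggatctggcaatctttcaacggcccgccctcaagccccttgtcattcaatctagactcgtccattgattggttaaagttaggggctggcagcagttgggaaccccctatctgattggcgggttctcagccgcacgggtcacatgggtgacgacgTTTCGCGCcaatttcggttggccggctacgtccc
Mcm2 promoter: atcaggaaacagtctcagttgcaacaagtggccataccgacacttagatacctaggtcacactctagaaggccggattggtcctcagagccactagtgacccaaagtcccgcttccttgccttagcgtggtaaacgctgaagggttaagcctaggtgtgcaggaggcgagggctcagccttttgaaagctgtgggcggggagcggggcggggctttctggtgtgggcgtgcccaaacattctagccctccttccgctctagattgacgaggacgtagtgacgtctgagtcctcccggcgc

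Mcm6 held 3 matches, 2 of which overlap in the run TTTGGCGCGAAA, and the overlapping pair in Mcm5 has the same build on the opposite strand. Mcm3 held 2 matches, both after the start, and Mcm7 held 1 before and 1 after it. Pola1 and Cdc6 held 1 each. Mcm7 has a further window in the table, and it holds none of the forms, as do those of Mcm2, Mcm10 and Pcna. The Mcm10 window ends within a possible match, since its last letters are the start of TTTGGCGC, and the next base was not searched.

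**Figure D1:**
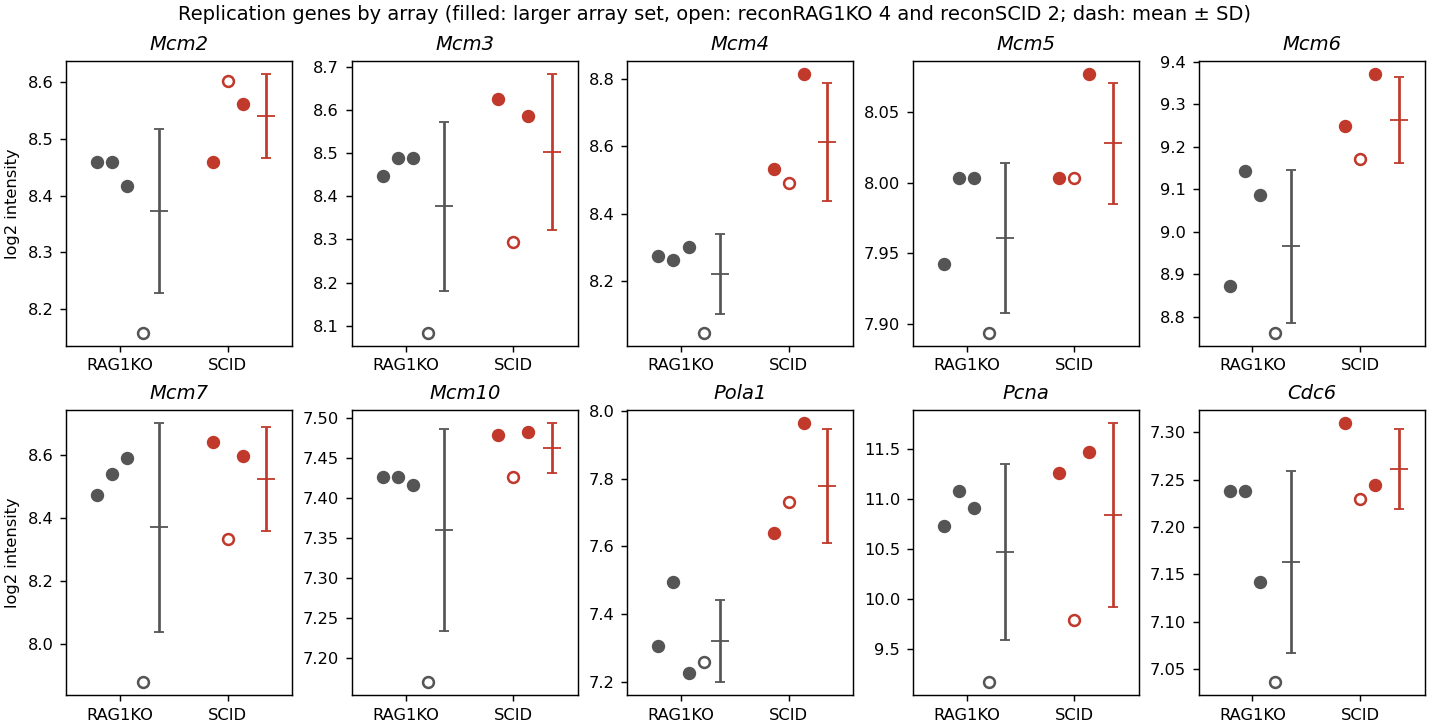
Log2 intensity of the 10 replication genes on each of the 7 arrays, by group, with the mean and SD of each group beside the points. Open points are reconRAG1KO replicate 4 and reconSCID replicate 2, and 9 of the 10 genes have their lowest value in reconRAG1KO replicate 4.

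Mcm4, Mcm6 and Pola1 were the 3 of the 10 genes for which every reconSCID array lay above every reconRAG1KO array. Such a separation upward held for 1.23% of the 19937 genes and the opposite one, which none of the 10 showed, for 1.54%. Because the genes were listed with this contrast known, nothing is read from that comparison. The other 7 genes overlapped between the groups.

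Mcm4, a helicase subunit and the next gene to Prkdc, measured 8.27, 8.26, 8.30 and 8.05 in reconRAG1KO replicates 1 to 4 and 8.53, 8.49 and 8.81 in reconSCID replicates 1 to 3. The lowest reconSCID array stood above the highest reconRAG1KO array, and the 3 reconRAG1KO arrays of the larger set lay close together. The group means were 8.22 ± 0.12 (SD, n = 4) and 8.61 ± 0.18 (SD, n = 3), a log2 difference of 0.39 ± 0.12 (SE), or 1.31-fold. The difference was 0.39 within the 5 arrays and 0.45 within the 2 arrays. Both are parts of the contrast known when the gene was listed, so they are no separate support for it.

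Pola1 had the largest difference of the 10 over all 7 arrays. Within the 5 arrays Pcna, by probe set 10461391, differed by 0.461 against 0.459 for Pola1, and within the 2 arrays by 0.62 against 0.47. The gene read by that Pcna probe set is uncertain. The other Pcna probe set, 10487930, differed by 0.37 within the 5 arrays and 0.12 within the 2, less than Pola1 in both. Pola1 measured 7.30, 7.50, 7.23 and 7.26 in reconRAG1KO and 7.64, 7.73 and 7.96 in reconSCID. Its means were 7.32 ± 0.12 (SD, n = 4) and 7.78 ± 0.17 (SD, n = 3), a log2 difference of 0.46 ± 0.12 (SE), or 1.37-fold. Of the 10 genes it is the 1 whose lowest array was not reconRAG1KO replicate 4, and its difference was 0.46 within the 5 arrays and 0.47 within the 2 arrays.

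Mcm6 measured 8.87, 9.14, 9.09 and 8.76 in reconRAG1KO and 9.25, 9.17 and 9.37 in reconSCID. The groups were separated by a narrow gap, since reconRAG1KO replicate 2 came within 0.027 of reconSCID replicate 2. Its means were 8.97 ± 0.18 (SD, n = 4) and 9.26 ± 0.10 (SD, n = 3), a log2 difference of 0.30 ± 0.12 (SE), with 0.28 within the 5 arrays and 0.41 within the 2. Leaving out each array in turn, the difference ran from 0.23 to 0.36 for Mcm6, from 0.29 to 0.45 for Mcm4 and from 0.36 to 0.53 for Pola1.

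The other subunits of the ring were higher on average in reconSCID by less, and their groups overlapped. Mcm2 measured 8.46, 8.46, 8.42 and 8.16 in reconRAG1KO and 8.46, 8.60 and 8.56 in reconSCID, a log2 difference of 0.17 ± 0.11 (SE). Replicates 1 and 2 of reconRAG1KO and replicate 1 of reconSCID hold exactly the same deposited value of Mcm2. Without reconRAG1KO replicate 4, the low array, the difference was 0.096. It was 0.065 within the 5 arrays and 0.44 within the 2.

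Mcm3 measured 8.45, 8.49, 8.49 and 8.08 in reconRAG1KO and 8.63, 8.29 and 8.59 in reconSCID, a log2 difference of 0.13 ± 0.14 (SE). Both low values, 8.08 and 8.29, came from the 2 arrays that stand apart, and within the 5 arrays the groups did not overlap. The difference was 0.13 within the 5 arrays, 0.21 within the 2, 0.028 without reconRAG1KO replicate 4 and 0.23 without reconSCID replicate 2.

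Mcm7 measured 8.47, 8.54, 8.59 and 7.88 in reconRAG1KO and 8.64, 8.33 and 8.60 in reconSCID, a log2 difference of 0.15 ± 0.19 (SE). It had the widest spread of the ring in reconRAG1KO, an SD of 0.33, because of replicate 4. The difference was 0.085 within the 5 arrays and 0.45 within the 2. Leaving out reconRAG1KO replicate 4 gave -0.010, and leaving out reconSCID replicate 2 gave 0.25.

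Mcm5 had the narrowest range of the 10. It measured 7.94, 8.00, 8.00 and 7.89 in reconRAG1KO and 8.00, 8.00 and 8.08 in reconSCID, and 4 of the 7 arrays hold the same deposited value. The log2 difference was 0.067 ± 0.078 (SE), smaller than its error, and it was 0.042 without reconSCID replicate 3. Within the 5 arrays it was 0.057 and within the 2 it was 0.11.

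Of the genes that load or accompany the helicase, Cdc6, the loading factor, measured 7.24, 7.24, 7.14 and 7.04 in reconRAG1KO and 7.31, 7.23 and 7.24 in reconSCID, a log2 difference of 0.098 ± 0.088 (SE). Mcm10 measured 7.43, 7.43, 7.42 and 7.17 in reconRAG1KO and 7.48, 7.43 and 7.48 in reconSCID, a log2 difference of 0.10 ± 0.097 (SE). The groups of both genes overlapped, and the low array was again reconRAG1KO replicate 4. Without it the differences were 0.056 for Cdc6 and 0.039 for Mcm10. Cdc6 differed by 0.071 in the larger array set and 0.19 in the smaller, and Mcm10 by 0.057 and 0.26.

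Pcna, the clamp, had 2 probe sets, and the one with the higher mean (10461391) is uncertain. The 6 annotated probe sets numbered nearest to it hold 0 genes of chromosome 2, where RefSeq places Pcna, and mostly genes of chromosome 19, whereas all 6 nearest to the other probe set (10487930) are genes of chromosome 2. Its level may therefore include near-identical copies of Pcna, and its values are uncertain. It measured 10.73, 11.07, 10.91 and 9.17 in reconRAG1KO and 11.26, 9.79 and 11.47 in reconSCID. The 2 low arrays, 9.17 and 9.79, are those that stand apart, and they set the SDs of 0.88 and 0.92.

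The log2 difference of probe set 10461391 was 0.37 ± 0.59 (SE). Leaving out reconRAG1KO replicate 4 gave -0.065, and leaving out reconSCID replicate 2 gave 0.90. A fit blocked on the array sets gave 0.51 ± 0.11 (SE). Those sets are no recorded batch but were found by clustering these same arrays. The SE of 0.11 takes no account of that choice, so nothing is read from its size. The other probe set of Pcna measured 10.75, 10.75, 10.75 and 9.34 in reconRAG1KO and 11.02, 9.46 and 11.21 in reconSCID, a log2 difference of 0.17 ± 0.54 (SE). Its difference was 0.37 within the 5 arrays and 0.12 within the 2 arrays, beside 0.46 and 0.62 for the first probe set.

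**Figure D2:**
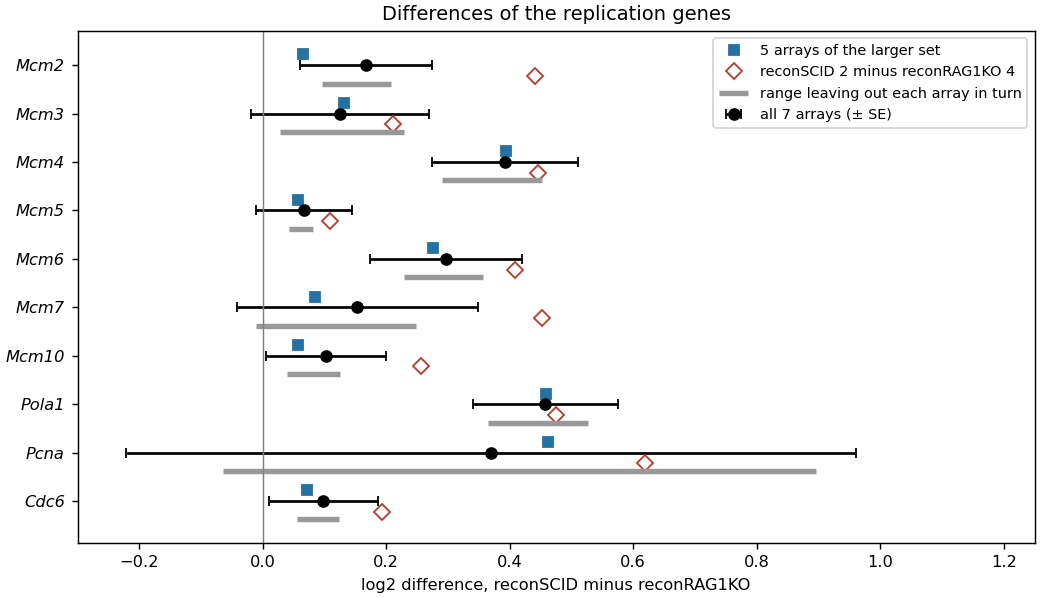
Log2 difference of each gene, reconSCID minus reconRAG1KO, over all 7 arrays (black, ± SE), within the 5 arrays (squares) and within the 2 arrays (open diamonds), with the range on leaving out each array in turn as a grey bar. Pola1 and Mcm4 lie at 0.46 and 0.39 over all arrays with bars clear of 0, while the bars of Mcm7 and Pcna cross 0.

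Over the 10 genes the median log2 difference was 0.16, against -0.0074 over all 19937 genes, and all 10 were higher on average in reconSCID, as were 47.5% of all genes. Blocking on the array set gave a median of 0.18. The 5 arrays alone gave 0.11 and the 2 arrays alone 0.42, with 10 of 10 higher in each set, beside 45.8% and 46% of all genes. The median was 0.050 without reconRAG1KO replicate 4. Within the 5 arrays, the groups of 8 of the 10 did not overlap, all but Mcm2 and Mcm5. There every reconSCID array lay above every reconRAG1KO array for 2730 of all 19937 genes (13.7%) and below for 3613. Of 65 replication genes outside the 10, 17 (26.2%) lay above and 1 below. The 10 genes were chosen with that contrast known, so the counts describe them and test nothing. By limma 0 of the 10 had an adjusted p under 0.05, beside 0% of all probe sets.

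These genes also differed between the array sets, all in the same direction. All 10 had a lower mean in the 2 arrays than in the 5, from -0.030 for Pola1 to -1.61 for Pcna on the log2 scale. Mcm7 and Mcm3 followed Pcna at -0.46 and -0.34. Among the 10 genes, 5 had 7 different deposited values and 5 had at least 1 value shared exactly between arrays.

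The values of the 6 subunits of the ring were positively correlated. Over the 7 arrays the 15 pairs among Mcm2 to Mcm7 had Pearson correlations of 0.62 to 0.97, with a median of 0.77. After each array set's own mean had been taken off, the pairs ran from 0.69 to 0.96, with a median of 0.81. These correlations describe 7 arrays that differ in array set and group together. The group difference, known when the genes were listed, stays in both readings, so positive values are partly built in. Other pairs of genes were not set beside them, and nothing is read from their size. Of the genes outside the ring, Mcm10 correlated at 0.95 with the mean of the ring, Pcna at 0.85, Cdc6 at 0.83 and Pola1 at 0.72.

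Among 11533 other genes above the median level, the 5 whose profile over the 7 arrays was most like the mean of Mcm2 to Mcm7 were U2surp (0.9999), Kif15 (0.995), Chsy1 (0.995), Tut7 (0.993) and Anp32a (0.989), by Pearson correlation. Kif15 is a kinesin of the mitotic spindle, U2surp a protein of the splicing machinery, Chsy1 a chondroitin synthase, Tut7 a uridylyltransferase of RNA and Anp32a an acidic nuclear phosphoprotein. After taking off the array set means, which leaves the group difference in, the 5 correlated at 0.982 or above. They were taken as the highest of 11533 on these same 7 arrays, so high values are built into both readings. Kif15 measured 7.17, 7.39, 7.39 and 6.53 in reconRAG1KO and 7.62, 7.38 and 7.72 in reconSCID, so its groups overlapped. Its low array was also reconRAG1KO replicate 4, which its choice by likeness favours.

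**Figure D3:**
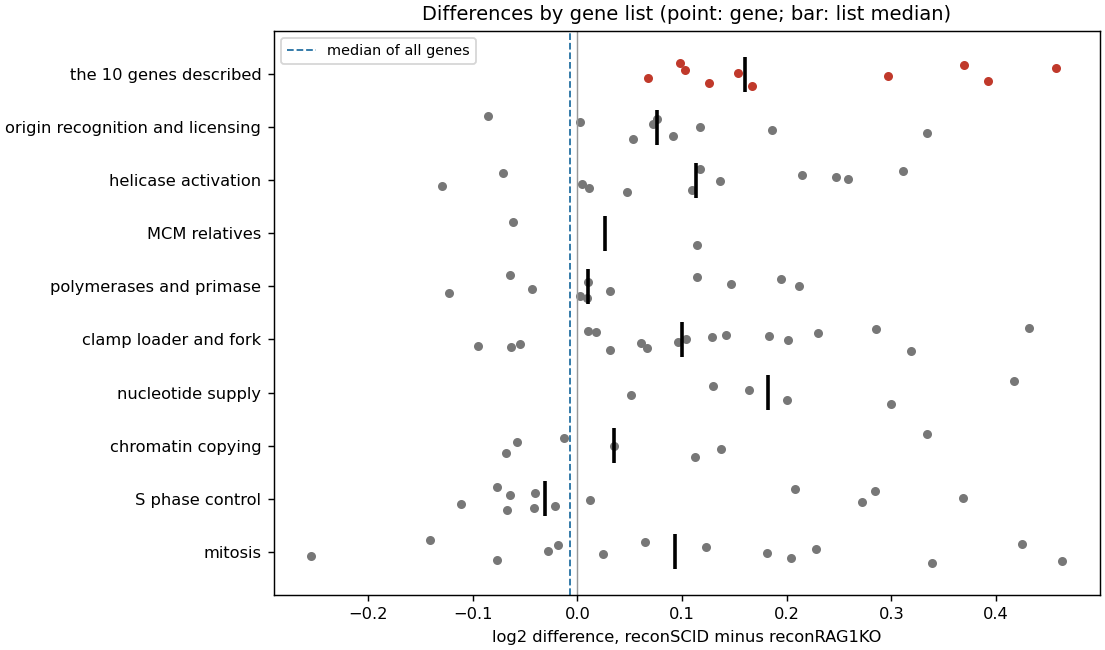
Log2 difference, reconSCID minus reconRAG1KO, of each gene by list, with the list's median as a bar and the median of all genes as a dashed line. The 10 genes described have a median of 0.16, and the other lists have medians between -0.031 for S phase control and 0.18 for nucleotide supply.

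Replication genes outside the 10 gave the wider setting. Of 65 such genes, 52 were higher and 13 lower on average in reconSCID, with a median log2 difference of 0.096, and 0 passed in either direction by limma after adjustment over all probe sets. Within the 5 arrays 48 were higher (median 0.070) and within the 2 arrays 47 were (median 0.16). With S phase control and mitosis genes added, 1 of 91 had an unadjusted p under 0.05, against 0.863% of all genes in the higher direction and 1.19% in the lower. That gene was Rfc1, the large subunit of the clamp loader.

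Rfc1 measured 7.81, 7.90, 7.96 and 7.74 in reconRAG1KO and 8.22, 8.03 and 8.27 in reconSCID. It is also the 1 gene of the 91 whose groups did not overlap. The log2 difference was 0.32 ± 0.10 (SE), and it was 0.35 within the 5 arrays and 0.29 within the 2 arrays. By limma its p was 0.01766 before adjustment and 1 after it.

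In origin recognition and licensing, 8 of 9 genes were higher on average, with a median of 0.076. Orc3 and Orc4, subunits of the origin recognition complex, differed by 0.33 ± 0.20 (SE) and 0.19 ± 0.15 (SE), while Mcmbp, a protein that binds the Mcm ring, differed by -0.085 ± 0.11 (SE). In helicase activation, 10 of 12 were higher, with a median of 0.11. Topbp1, a scaffold of origin firing, differed by 0.21 ± 0.11 (SE), and Ticrr, its partner in loading Cdc45, by 0.25 ± 0.13 (SE). On the lower side were Recql4 at -0.071 and Gins3 at -0.13, the latter a subunit of the active helicase whose 2 low arrays, 6.22 and 6.35, are again those that stand apart. Within those 2 arrays Gins3 turned sign, to 0.13.

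Of the polymerases and primase, 8 of 11 were higher with a median of 0.0098, which was 0.095 within the 5 arrays and 0.11 within the 2. Pold3 and Pole2, accessory subunits of polymerases delta and epsilon, differed by 0.21 ± 0.11 (SE) and 0.19 ± 0.14 (SE), and the primase subunit Prim2 and the polymerase subunit Pold2 by -0.12 and -0.044. Both of these turned sign in 1 array set, Prim2 to 0.11 within the 5 arrays and Pold2 to 0.37 within the 2. At the clamp loader and fork 15 of 18 were higher with a median of 0.10. There Atad5, which unloads the clamp, differed by 0.29 ± 0.12 (SE), and the loader subunit Rfc5 and the single-strand binding protein Rpa1 by -0.095 and -0.055. Rpa1 also turned sign, to 0.080 within the 5 arrays.

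All 6 measured genes of nucleotide supply were higher on average over the 7 arrays, with a median of 0.18, and 4 of them were within the 5 arrays. Tk1, thymidine kinase, differed by 0.16 ± 0.090 (SE) and Rrm2, the ribonucleotide reductase subunit of S phase, by 0.20 ± 0.12 (SE). Of the genes that copy chromatin, 4 of 7 were higher with a median of 0.035, which was -0.014 within the 5 arrays. Hells, a remodelling helicase, differed by 0.33 ± 0.23 (SE) and Chaf1a, a subunit of the histone chaperone CAF-1, by 0.11 ± 0.16 (SE), against -0.058 for Uhrf1 and -0.068 for Chaf1b. Chaf1a turned sign within the 5 arrays, to -0.014, and Uhrf1 within the 2, to 0.10. Of the other MCM proteins Mcm8, a helicase of recombination repair, differed by 0.11 ± 0.095 (SE) and its partner Mcm9 by -0.062 ± 0.11 (SE). Mcm8 differed by -0.12 within the 2 arrays and Mcm9 by 0.0099 within the 5.

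Over the 7 arrays the regulators of S phase entry did not share the sign, with 5 of 12 higher and a median of -0.031. Within the 5 arrays, however, 8 of 12 were higher (median 0.062), and within the 2 arrays 7 were (median 0.046). E2f8 and the retinoblastoma gene Rb1 differed by 0.27 ± 0.15 (SE) and 0.28 ± 0.17 (SE), and Cdk2 and E2f7 by -0.065 and -0.11. Within the 2 arrays E2f7 turned sign, to 0.049. Among mitosis genes 9 of 14 were higher, with a median of 0.093. That was 10 of 14 with a median of 0.053 within the 5 arrays, and 13 of 14 with a median of 0.30 within the 2. Mki67, the proliferation marker, measured 9.35, 9.53, 9.53 and 9.05 in reconRAG1KO and 9.67, 9.53 and 9.91 in reconSCID, a log2 difference of 0.34 ± 0.16 (SE), and Aurkb differed by 0.18 ± 0.10 (SE). Cdk1 and Cdc20, which drive entry into and exit from mitosis, differed by -0.25 ± 0.29 (SE) and -0.14 ± 0.22 (SE), and within the 2 arrays Cdc20 differed by 0.31.

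The E2F letters of the promoters were unevenly spread over these lists. They stood in 18 of the 54 replication genes outside the 10 that have a promoter in the table, or 33.3%, and among the genes named above these were Orc3, Mcmbp, Topbp1, Gins3, Mcm8, Pold3, Pole2, Atad5, Hells and Uhrf1. In S phase control 6 of 11 had them, Cdk2 and E2f7 included, in mitosis 1 of 13 (Cdk1) and in nucleotide supply 0 of 6. CCAAT stood in 27 of the 54 replication genes outside the 10 (50%), beside 41.7% of the measured genes, and in 12 of the 13 mitosis promoters.

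**Figure D4:**
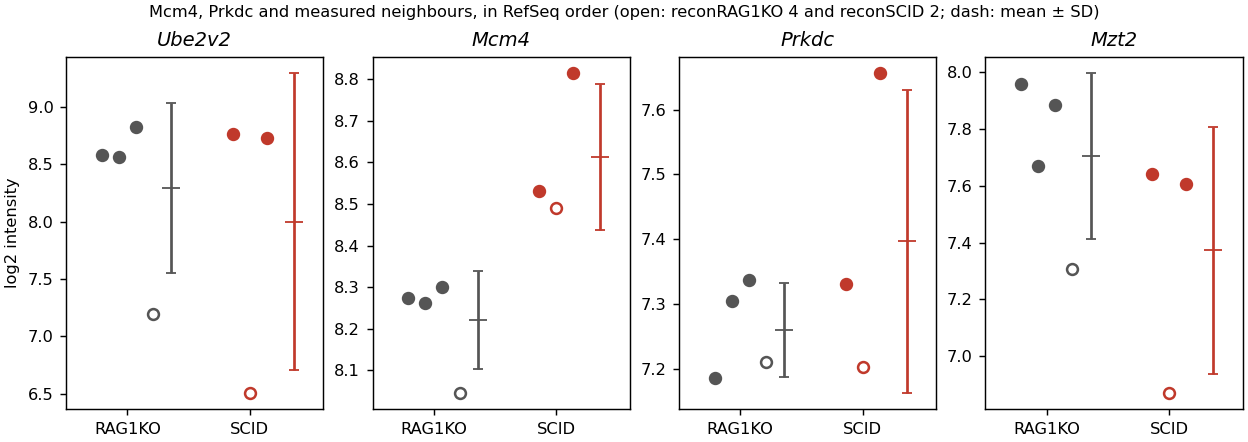
Log2 intensity of Ube2v2, Mcm4, Prkdc and Mzt2 by array and group, with the mean and SD of each group. Every reconSCID array lies above every reconRAG1KO array for Mcm4, while the groups overlap for the other 3 genes.

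Mcm4 and Prkdc stand side by side on chromosome 16 in RefSeq. The question was whether the gene that carries the SCID mutation and its neighbours had values like those of Mcm4. Prkdc (probe set 10433797) measured 7.19, 7.30, 7.34 and 7.21 in reconRAG1KO and 7.33, 7.20 and 7.66 in reconSCID, a log2 difference of 0.14 ± 0.13 (SE). Its groups overlapped, and the high value came from reconSCID replicate 3 alone. Within the 2 arrays Prkdc differed by -0.0085 and Mcm4 by 0.45, and within the 5 arrays by 0.22 and 0.39.

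Of the 3 genes on each side, 2 had a probe set with 1 symbol. Ube2v2, a ubiquitin-conjugating enzyme variant on the Mcm4 side, differed by -0.29 ± 0.66 (SE), with low values of 7.20 and 6.51 in the 2 arrays that stand apart. Mzt2, a protein of the gamma-tubulin complex on the Prkdc side, measured 7.96, 7.67, 7.88 and 7.31 in reconRAG1KO and 7.64, 6.87 and 7.61 in reconSCID, a log2 difference of -0.33 ± 0.24 (SE). Within the 5 arrays Ube2v2 differed by 0.090 and Mzt2 by -0.21, and within the 2 arrays by -0.69 and -0.44. Over all 7 arrays both were lower on average with overlapping groups, but for Ube2v2 the sign turned within the 5 arrays. The SCID mutation is a change in the coding sequence, and a transcript level does not check it.

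**Figure D5:**
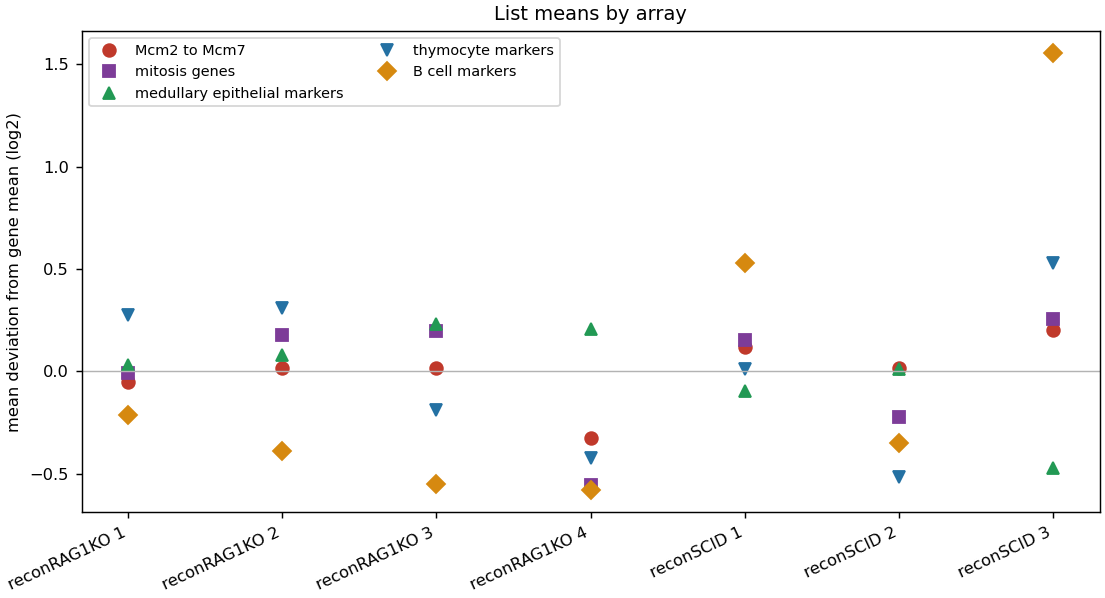
Mean deviation from each gene's own mean (log2) on each array, for Mcm2 to Mcm7, mitosis genes and 3 lists of cell type markers. The ring lies at -0.33 in reconRAG1KO replicate 4 and at 0.20 in reconSCID replicate 3, the array with the highest B cell markers (1.55) and the lowest medullary epithelial markers (-0.47).

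Array by array, the mean deviation of Mcm2 to Mcm7 from each gene's own mean was -0.053, 0.019, 0.017 and -0.33 in reconRAG1KO and 0.12, 0.018 and 0.20 in reconSCID. The groups overlapped at reconRAG1KO replicate 2 and reconSCID replicate 2, which were almost equal. The mitosis genes, which mark dividing cells by another phase, were at -0.0069, 0.18, 0.20 and -0.56 in reconRAG1KO and 0.15, -0.22 and 0.25 in reconSCID. Both lists thus had their lowest array in reconRAG1KO replicate 4 and their highest in reconSCID replicate 3, and the mitosis genes overlapped more widely between the groups.

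Markers of other cells moved with some of these arrays, and dividing cells of any type carry replication transcripts. Of 9 B cell markers 8 were measured, and their summed intensity ran from 803 to 1049.95 in reconRAG1KO and from 933 to 3751 in reconSCID, with all 8 higher on average and a median log2 difference of 1.06. That median was 1.43 within the 5 arrays and 0.28 within the 2 arrays, while the median of the 10 replication genes was 0.11 and 0.42. ReconSCID replicate 3 had the highest value of both the B cell markers and the ring.

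Thymocyte markers, measured for 10 of 11, summed to 1839 to 3214 in reconRAG1KO and 1621 to 3838 in reconSCID, with a median log2 difference of 0.013 (0.14 within the 5 arrays and -0.075 within the 2). Myeloid markers, measured for 7 of 7, summed to 6370.15 to 10227 and 4787 to 15622, with a median of 0.10 (0.58 and -0.57 likewise). That list was mixed, with 4 higher and 3 lower on average. Its largest difference was that of Ly6g, -1.47 ± 0.61 (SE), with -1.41 within the 5 arrays and -1.16 within the 2. Stromal and endothelial markers, 5 of 5, summed to 655 to 1357 and 715 to 1734, with a median of 0.33 (0.069 within the 5 arrays and 0.32 within the 2), and both of their highest sums came from the 2 arrays that stand apart. Medullary epithelial markers summed to 18644 to 22037 and 15380.1 to 19519, with a median of -0.34 (-0.48 within the 5 arrays and -0.17 within the 2) and 10 of 12 lower on average. No marker on these lists was at 0 on any array, where an intensity always holds some background. The part of these cells in the differences of the replication genes was not tested, and in sorted bulk samples fewer cells of a type and less RNA per cell cannot be told apart.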

How the data were processed

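Transcripts of sorted medullary epithelial cells were measured on 7 arrays, 4 of reconRAG1KO and 3 of reconSCID, grouped and numbered by the sample titles, which call them biological replicates. The authors deposited linear intensity values by probe set, already summarised and brought to nearly the same level (array medians of 88.6 to 96.3). The method was not given in the sources used here, and per the labels biotinylated cRNA was made from 6 µg total RNA. Here log2 was taken with no pseudocount, as 0 values lay below 1. GEO's platform annotation pairs 21640 of the 34760 probe sets with 1 gene symbol, 1321 with several and 11799 with none, and 1 probe set per gene, that with the highest mean, stood for 19937 genes. Names and neighbours came from RefSeq, assembly GRCm38.p6.

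The groups were compared in R 4.3.3 by a linear model (limma 3.58.1, lmFit, eBayes). P-values were two-sided, adjusted by Benjamini-Hochberg over all probe sets and called under 0.05. Each log2 difference is reconSCID less reconRAG1KO, with the SE of the model. The script was tested on simulated data with independent noise and no array sets, as a check of the code only. The 2 array sets were found by average-linkage clustering of the array correlations. The genes described, the lists and the tests were chosen with earlier results of these data known. Named are the 10 genes, Prkdc and the measured genes among 3 on each side, per list up to 2 genes a direction, taken by lowest p before adjustment, and the 5 genes most like the mean of Mcm2 to Mcm7. Listed genes without a probe set of 1 symbol in the annotation used here were not analysed here. Alternatives were quantile normalization, median centring, a pseudocount of 16, leaving out dim probe sets, a robust fit with trend, array weights, replicate number or array set as a block, the larger array set alone, all probe sets of a gene and leaving out each array. Precision is limited by how few arrays there are.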

Additional observations from a re-analysis of the deposited data

Results flagged for a closer look

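Dixon's test for a sample far from the others was run in reconRAG1KO for the 49 named genes, and 14 were singled out. Chance gives about 1 in 20 for independent groups, but these genes vary together on the same 4 arrays, so the number of genes singled out is not set against that share. In 13 of them the array was reconRAG1KO replicate 4. Among the 10 replication genes these were Mcm2 (8.16 against 8.42 for the nearest of the others), Mcm3 (8.08 against 8.45), Mcm4 (8.05 against 8.26), Mcm7 (7.88 against 8.47) and Mcm10 (7.17 against 7.42), all low. Low in the same array were Orc4 (7.24), Ticrr (6.15), Gins3 (6.22), Rpa1 (7.86), Ube2v2 (7.20) and Chsy1 (7.76), and high were Recql4 (6.52) and E2f7 (7.82). Chsy1 was named for its likeness to Mcm2 to Mcm7, whose low array is the same, and Ticrr has the same deposited value in the other 3 arrays. Prim2 was low in reconRAG1KO replicate 1, at 7.38 against 7.50 for the nearest of the others.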

How the results depend on the processing

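The median difference of the 10 replication genes, 0.16, ran from 0.050 to 0.24 on leaving out each array in turn, the lowest without reconRAG1KO replicate 4 and the highest without reconSCID replicate 2, and was 0.42 within the 2 arrays, a reading added after seeing the data. Of the single genes, Mcm7 and Pcna fell below 0 without reconRAG1KO replicate 4, and so with the replicate block, which gives the same differences. The difference of Mcm2 moved by more than its spread with array weights, to 0.036. With the replicate number as a block (replicate block) the median was 0.050, and 0 probe sets and 0 listed genes passed. That block leaves out reconRAG1KO replicate 4, which has no partner. Same-numbered samples deviated together at 0.47, -0.51 and 0.31. These values follow the array sets, as reconRAG1KO replicate 4 and reconSCID replicate 2 deviated together at 0.71. They cannot tell whether the numbers pair the samples. No probe set passed in the limma fit as reported (0), nor in 15 of its alternatives with an adjusted p, leaving out each array included (0 to 0). With array weights 57 probe sets passed, 0 of them among the 91 listed genes, and reconSCID replicates 1, 2 and 3 had weights of 4.79, 0.12 and 0.80. At an unadjusted p under 0.05, 1159 probe sets and 1 listed gene passed.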
